A study of Mus musculus with 4 samples.

Results

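The genes described here encode the proteins of the cytosolic ribosome. They were the 83 of 32285 gene rows whose symbol is Rpl or Rps followed by a number, with at most 1 letter and 1 digit after it, or Rplp0, Rplp1, Rplp2 or Rpsa. Single-cell RNA sequencing of mouse lung measured them in 2 libraries labelled GAL, whose genotype is given as Galt gene-edited, and in 2 libraries labelled WT, wild type. The product of Galt is an enzyme needed to use galactose as fuel. The labels used here give no kind of edit, strain, age or sex and do not say how many animals a library holds, so the spread between libraries of a group may be partly technical. Each value is a count of UMIs, the molecular tags that mark single captured transcripts.

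The cytosolic ribosome has a small subunit, built from proteins named Rps on a ribosomal RNA core, and a large subunit, built in the same way from proteins named Rpl. Its protein mRNAs are among the most abundant in most cells, and many begin with a C followed by a run of pyrimidines, the terminal oligopyrimidine or TOP tract, through which mTOR signalling and Larp1 control their translation. Some subunit proteins have a second gene, a paralogue, that is used in particular tissues.

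After filtering, the libraries held 10967 (GAL replicate 1), 10757 (GAL replicate 2), 12441 (WT replicate 1) and 13515 cells (WT replicate 2), with medians of 3709, 2841, 2361 and 2363 UMIs. Cells were assigned to a type only when at least 3 of its 6 markers had a UMI and at least 2 more than of any other type, which placed 64.6% to 72.1% of the cells of a library. The 14 types with at least 50 such cells in every library were compared. The markers are high in their own type by construction. Leading genes outside the markers and the group included Cr2, Ly6d and Fcmr in B cells and Klra9, Klra7 and Eomes in NK cells. In every one of the 14 types the share of mitochondrial UMIs was higher in both GAL libraries than in both WT libraries. Of the cell barcodes, 747 occurred in 2 libraries and 7 in 3.

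The RefSeq table of GRCm38.p6 gave a start site for 63 of the 83 genes. A C followed by at least 6 pyrimidines, starting within 5 bases of the annotated start on the coding strand, was present at 23 of these 63 genes (36.5%) and at 7.64% of all genes in the table. The starts of 9 genes that the results below turn on are shown as 10 bases before and 20 bases from the annotated start, read 5′ to 3′ on the strand of the gene, with that pyrimidine run in capitals where it was found, counted from the C nearest to the annotated start.
Rps6, chr4:86857348-86857377, minus strand: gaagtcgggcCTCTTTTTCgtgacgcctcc
Rps9, chr7:3704031-3704060, plus strand: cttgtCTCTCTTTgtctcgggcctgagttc
Rps27, chr3:90213629-90213658, minus strand: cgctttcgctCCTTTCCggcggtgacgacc
Rps27l, chr9:66946076-66946105, plus strand: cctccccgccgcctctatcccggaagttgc
Rpl12, chr2:32961702-32961731, plus strand: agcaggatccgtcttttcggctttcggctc
Rpl22, chr4:152325716-152325745, plus strand: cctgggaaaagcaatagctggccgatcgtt
Rpl22l1, chr3:28805498-28805527, plus strand: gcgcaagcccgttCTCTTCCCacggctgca
Rpl3l, chr17:24727816-24727845, plus strand: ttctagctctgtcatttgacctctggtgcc
Rpl36al, chr12:69184048-69184077, minus strand: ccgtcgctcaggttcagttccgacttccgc
In Rps6 and Rps27 the annotated start was itself such a C, with further pyrimidines just before it, and the second genes Rps27l, Rpl3l and Rpl36al had none in this window. The first genes Rpl36a and Rpl22 had none either, whereas the second gene Rpl22l1 had a run. The absence of the letters in a window says nothing of the factors that act on the gene.

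T and B cells spent the largest part of their captured transcripts on ribosomal proteins and neutrophils the smallest. In T cells the share of UMIs on the 83 genes was 34.5% and 28.9% in the GAL libraries and 29.8% and 37.3% in the WT libraries. In B cells it was 29.8%, 29.0%, 32.0% and 28.4% in the same order. Both lay above every other tested type in each library, and they did not differ from each other beyond their spread, since T cells were the higher of the pair in only 2 of the 4 libraries.

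Dendritic cells, which take up antigen and present it to T cells, came next, with 23.9% to 26.4% in type 1 and 23.6% to 25.0% in type 2. Classical monocytes (20.6% to 21.9%), NK cells (19.4% to 23.0%) and nonclassical monocytes (19.1% to 20.8%) overlapped. Interstitial macrophages held 16.2% to 18.2% and adventitial fibroblasts, the matrix cells around vessels and airways, 15.8% to 16.7%, again with overlapping ranges. Below them stood alveolar macrophages (13.8% to 15.2%), alveolar fibroblasts (12.9% to 13.9%) and general capillary endothelial cells (12.5% to 13.9%).

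Aerocytes, the capillary cells specialised for gas exchange, held 7.80% to 9.43%, and neutrophils 4.43% to 6.04%. Both were below the type before them in the order in all 4 libraries. Ciliated cells, too few for the comparison, held 6.07% to 7.38%. From T cells to neutrophils the mean over libraries fell from 32.6% ± 3.95 to 5.45% ± 0.735 (SD, n = 4). Depth differed between types. Alveolar macrophages were among the most deeply captured cells, with medians of 9377 to 11488 UMIs, and B cells among the shallowest, with 1515 to 2288. Within cells of 1000 to 4000 UMIs, 11 types had at least 20 cells in every library, and T cells (32.6%) and neutrophils (5.07%) were again at the ends.

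**Figure D1:**
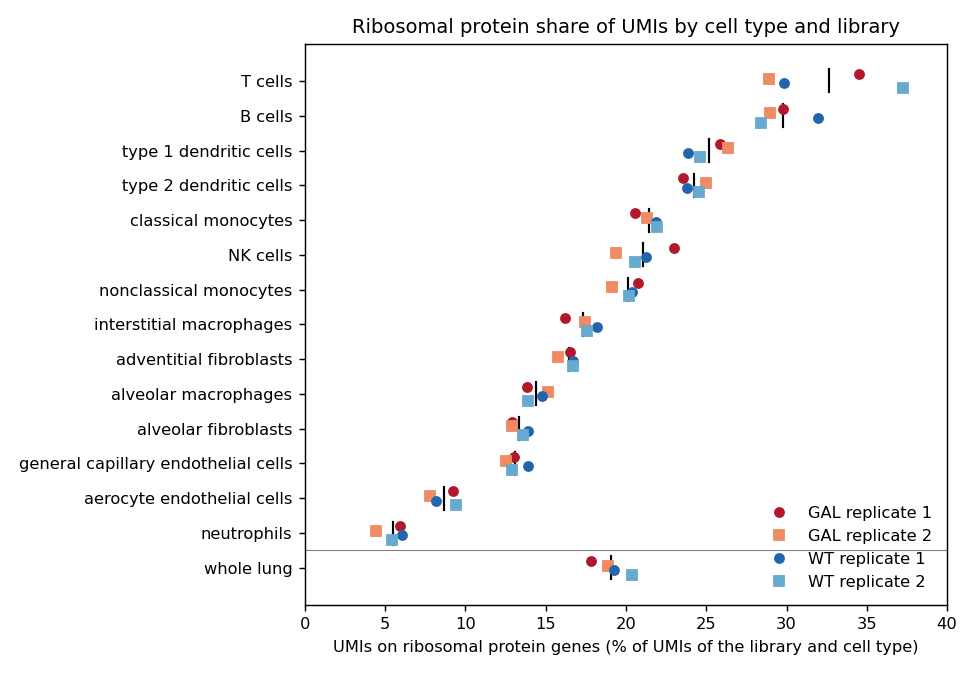
Share of UMIs on the 83 ribosomal protein genes (x axis, % of UMIs) in the whole lung and 14 gated cell types (y axis); points are libraries and black bars the mean of the 4. T and B cells lie above 28% in every library, and neutrophils lie below 6.1%.

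T cells also had the widest spread between libraries, and it ran within each group rather than between GAL and WT. Dividing T cells, a split added after the data were seen, had at least 3 of 6 division genes and made up 1.70% to 5.96% of T cells. They held 24.5%, 23.2%, 24.9% and 25.6% ribosomal protein UMIs in GAL replicates 1 and 2 and WT replicates 1 and 2, below the 30.2% to 38.3% of T cells with none of those genes. The share was lower in dividing cells by 6.68 to 12.7 points, but these cells were also deeper, with medians of 6436 to 8457 UMIs. The part of depth could not be tested because 3 to 21 dividing cells fell within the range of 1000 to 4000 UMIs. Each side of the split may also mix kinds of T cell in different proportions, and the part of that was not tested. No such gap was seen in alveolar macrophages, where dividing cells held 13.4% to 15.2% and other cells 13.9% to 15.3%. In interstitial macrophages 2 to 9 cells, and in B cells 0 to 4, were dividing.

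**Figure D2:**
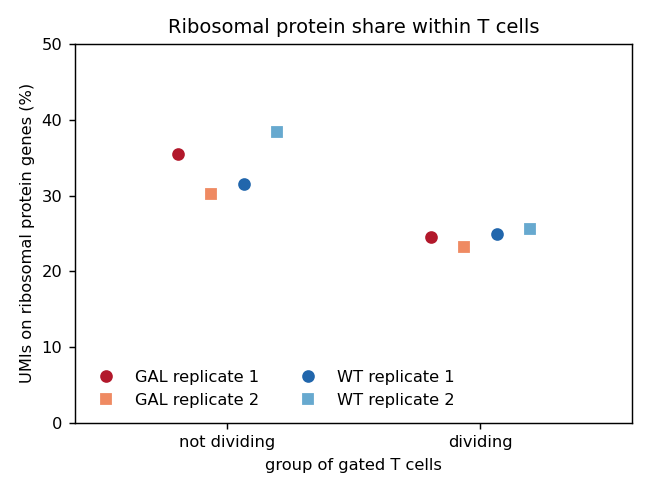
Ribosomal protein share of UMIs (y axis, %) in gated T cells with none of the division genes and in dividing T cells (x axis), 1 point per library. Dividing cells lie at 23.2% to 25.6%, below the 30.2% to 38.3% of cells that are not dividing.

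Most of the 83 genes moved together between types. Each type was compared with the mean of the others by edgeR's quasi-likelihood test on summed counts, with the library as a block, and a gene was called at a Benjamini-Hochberg adjusted p under 0.05 and at least 1.5-fold. Of the 81 ribosomal protein genes tested, 76 were higher in T cells (background over all 12011 genes 23.4%), 77 in type 2 dendritic cells (22.5%), 72 in type 1 dendritic cells (19.4%) and 66 in B cells (25.8%). Lower were 78 in aerocytes (20%), 70 in neutrophils (30.3%), 65 in general capillary cells (18.4%) and 36 in alveolar fibroblasts (18.5%). Since a share of UMIs is divided among all genes, a rise of this large group lowers the others in the same cells, and these are relative levels.

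The median log2 fold change of the genes was 1.04 in T cells against 0.00 over all genes tested, 0.93 in type 2 dendritic cells against -0.10, and -1.51 in aerocytes against 0.01. In classical monocytes 16 of the 81 were higher (background 17.3%), which is near the background. In interstitial macrophages only Rps29 was called higher (background 20.7%), with a log2 fold change of 0.60, and none was lower. In NK cells none was higher, and Rps27l was the only one lower (background 19%).

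**Figure D3:**
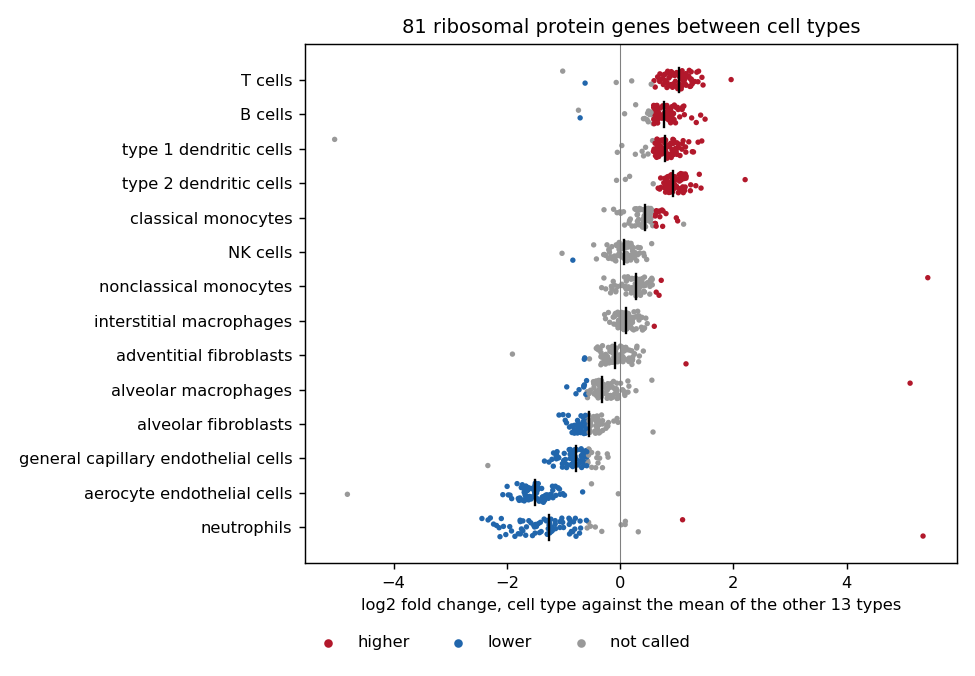
Log2 fold change of each of the 81 tested ribosomal protein genes (points) in a cell type against the mean of the others (x axis); black bars are medians, red is called higher, blue called lower and grey not called. The genes lie in a narrow band in T cells and are spread widely in neutrophils, and the points near 5 are Rpl3l.

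The proteins of the small subunit took a similar part of the pool in every type. Their 32 genes held 41.6% to 42.1% of ribosomal protein UMIs in alveolar macrophages, the lowest mean, and 45.5% to 47.3% in B cells, the highest mean. The 5 genes with the most UMIs were Rplp1 and Rplp2, which form the acidic stalk that recruits elongation factors, with Rps24, Rpl41 and Rpl23, and together they held 12.4% of the pool. Of the 80 genes with at least 10 CPM (UMIs of a gene per 1000000 UMIs of the library and type) in each tested type, 51 varied by less than 2-fold between types in their percentage of the pool, and the median range was 0.79 on the log2 scale.

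Neutrophils, short-lived granulocytes, stood at an end of the range for 8 of the 10 genes whose percentage of the pool varied most. Rps9, a small-subunit protein near the mRNA entry site, was at 2592, 3083, 2752 and 2926 CPM in GAL replicates 1 and 2 and WT replicates 1 and 2. That is 4.38% to 6.96% of the neutrophil pool, against 0.869% to 1.01% in general capillary cells. It was called higher in neutrophils than in the other types (log2 fold change 1.10 ± 0.07 SE, edgeR adjusted p = 1.9e-21), while most of the group was lower there.

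Rps27, a zinc-finger protein of the small subunit, took 3.64% to 5.09% of the neutrophil pool and 1.21% to 1.46% of the alveolar macrophage pool. Its level in neutrophils, 1725 to 3075 CPM, was not called different from the other types (0.09 on the log2 scale, edgeR adjusted p = 0.32), and in alveolar macrophages it was lower (-0.94 ± 0.08, edgeR adjusted p = 7.4e-15). Fau, which encodes the small-subunit protein eS30 fused to a ubiquitin-like domain and falls outside the symbol rule, stood at 5237 to 6558 CPM in neutrophils and was higher there (1.21).

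At the other end, Rpl10a, a protein of the mobile L1 stalk, was at 91.4 to 170 CPM in neutrophils, a log2 fold change of -2.44 ± 0.11 (edgeR adjusted p = 1.4e-27). Rpsa, the small-subunit protein also known as the laminin receptor, was at 204 to 332 CPM in neutrophils and at 3475 to 4217 CPM in type 1 dendritic cells. Rpl3, which lies by the peptidyl transferase centre, and Rps4x, a small-subunit protein encoded on the X chromosome, also had their lowest percentage of the pool in neutrophils. Leaving out the removal of likely doublets raised the neutrophil share from 5.45% to 6.67%.

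Rpl12, part of the base of the ribosomal stalk, was high in T and B cells. It stood at 4729, 3096, 3128 and 5607 CPM in T cells and at 2800 to 3513 CPM in B cells, and at 1249 to 1910 CPM in NK cells. In neutrophils it was at 126 to 261 CPM and in aerocytes at 306 to 561 CPM. The log2 fold change was 1.96 ± 0.07 in T cells (edgeR adjusted p = 3.8e-30), the highest of the group there. Its gene overlaps the end of Lrsam1 on the opposite strand, and whether counting used the strand is not stated in the labels.

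Use of the second gene differed widely between types in several of 7 paralogue pairs. Their coding sequences in GENCODE M21 are 54.8% (Rpl7 and Rpl7l1) to 87.7% (Rpl36a and Rpl36al) identical, with no identical stretch over 38 bases. Shares below are percentages of the UMIs of a pair, not corrected for length.

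Rpl22l1 shares 70.2% of its aligned coding bases with Rpl22, a large-subunit protein known for its role in lymphocyte development. Its share was 42.0%, 39.8%, 38.1% and 39.5% in adventitial fibroblasts and 35.1% to 39.0% in alveolar fibroblasts. In type 1 and type 2 dendritic cells it was 12.4% to 15.3%, and T cells lay between, at 21.8% to 26.4%. The fibroblast libraries lay above those of every other tested type. In ciliated cells, with 35 to 65 cells a library, it was 47.6% to 53.2%.

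The level of Rpl22l1 in adventitial fibroblasts was 772 to 830 CPM, and in T cells 615 to 843 CPM. It was called higher in adventitial fibroblasts (log2 fold change 1.16 ± 0.09, edgeR adjusted p = 2.0e-17) and in T cells (1.05 ± 0.09, edgeR adjusted p = 1.1e-15), and was just short of 1.5-fold in alveolar fibroblasts (0.58 ± 0.09). In the fibroblasts Rpl22 was not called, at -0.06 and -0.44, although the second value had an edgeR adjusted p of 2.6e-07 and fell short only in size. The gene lies on chromosome 3 and overlaps the antisense transcript Gm33051.

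Rps27l, a paralogue of Rps27 known as a target of p53, had its highest share in type 2 dendritic cells, at 20.2%, 20.7%, 24.3% and 24.2%, and in alveolar macrophages, at 19.6% to 22.2%. In T cells it was 2.497% to 3.75%, and in B cells 2.20% to 3.05%. Its level was 945 to 1338 CPM in type 2 dendritic cells and 203 to 304 CPM in T cells. The fold change in type 2 dendritic cells was 2.21 ± 0.08 on the log2 scale (edgeR adjusted p = 2.0e-31), and in B cells it was -0.71 ± 0.10 (edgeR adjusted p = 1.6e-08), in a type where most of the group was higher. In T cells it was called lower (-0.62), but with a gate of 4 markers the value was -0.54, with library sizes taken without the group -0.55 and with no filter on low counts -0.56, each under 1.5-fold. Leaving out GAL replicate 2, WT replicate 1 or WT replicate 2 gave -0.53, -0.56 and -0.53.

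Rpl36al encodes almost the same protein as Rpl36a and belongs to a pair of which the symbol rule takes only Rpl36a. Its share was 54.3%, 53.0%, 52.9% and 55.7% in classical monocytes and 43.6% to 48.8% in nonclassical monocytes. In T cells it was 26.6% to 30.0% and in general capillary cells 26.2% to 27.6%. The plasma cell gate, with 4 to 74 cells a library, gave 59.7% to 66.0%. In classical monocytes Rpl36al was higher, at 1087 to 1221 CPM (log2 fold change 1.14 ± 0.07), whereas Rpl36a, at 938 to 1074 CPM, was not called.

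**Figure D4:**
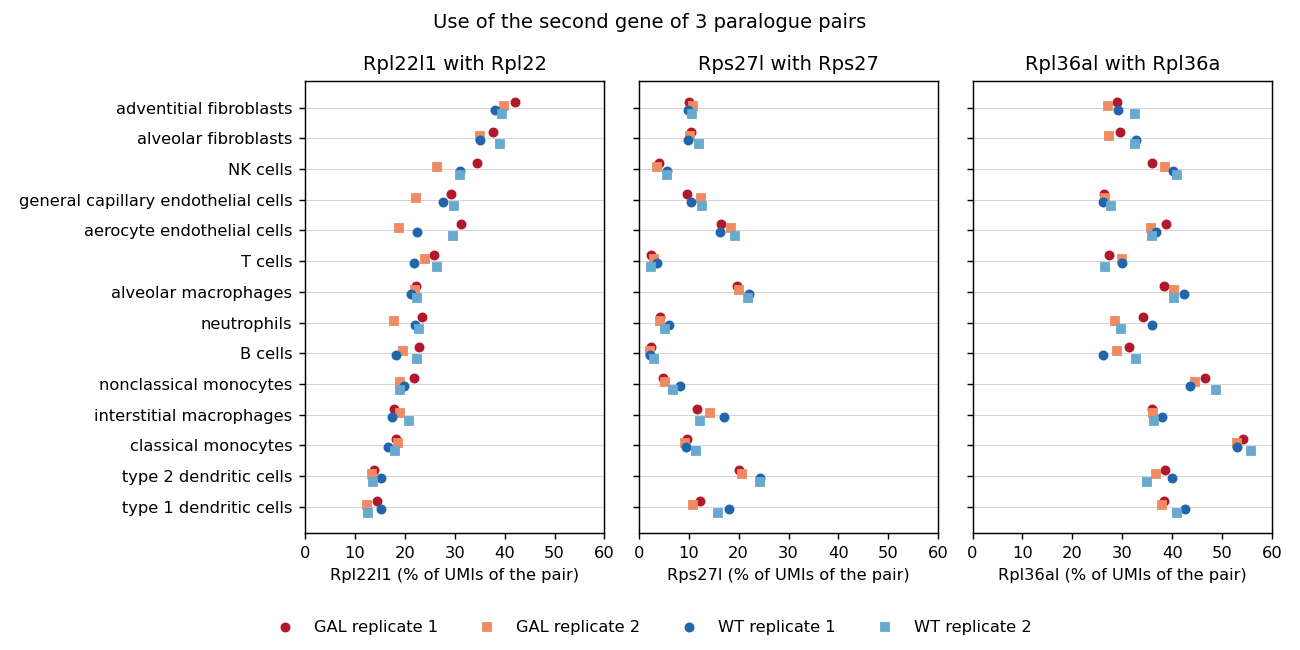
Share of the second gene in the UMIs of its pair (x axes, %) for Rpl22l1, Rps27l and Rpl36al in 14 cell types (y axis, ordered by the Rpl22l1 share), 1 point per library. Rpl22l1 peaks in the 2 fibroblast types, Rps27l in type 2 dendritic cells and alveolar macrophages, and Rpl36al in classical monocytes.

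Rpl3l replaces Rpl3 in striated muscle. Here its UMIs were found mainly in myeloid cells. Alveolar macrophages held 311, 402, 648 and 408 of them, or 29.0 to 39.5 CPM. Nonclassical monocytes held 31.9 to 48.0 CPM and neutrophils 15.3 to 28.001 CPM. Each of these 3 types was called higher (edgeR adjusted p = 1.1e-29, 4.3e-21 and 8.5e-22). Classical monocytes held 0 to 3.04 CPM, and type 1 dendritic cells had no UMI in any library, which at 3 counts allows up to 2.70 to 6.04 CPM.

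As a share of the pair this was 4.10% to 5.85% in alveolar macrophages and 3.33% to 6.60% in nonclassical monocytes. In neutrophils, where Rpl3 itself was low, it was 8.16% (95% Wilson interval 4.19% to 15.3%, from 98 UMIs), 24.5%, 21.8% and 17.8%, and its mean of 18.0% was 10.7% with likely doublets kept. Rpl3l lies at chr17:24727820-24736143 (GRCm38), on the plus strand, and ends 499 bases before Msrb1, a selenoprotein gene on the same strand. Msrb1 was at 849 to 1019 CPM in alveolar macrophages, 694 to 1242 in nonclassical monocytes and 2668 to 3450 in neutrophils, against 37.2 to 46.7 in T cells. It was also at 774 to 910 CPM in classical monocytes, where Rpl3l was near 0. Whether reads from the Msrb1 locus were counted for Rpl3l was not tested, since it needs read positions. The gate for heart muscle cells of the pulmonary vein held 7 cells in all 4 libraries.

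Rpl39l, a copy of Rpl39 best known from male germ cells, had 42, 97, 97 and 70 UMIs in alveolar macrophages, at 3.92 to 8.04 CPM, or 0.161% to 0.306% of the pair. Elsewhere it was rare, with 22 UMIs in T cells, 22 in interstitial macrophages and at most 6 in any other tested type. Rpl7l1, a nucleolar relative of Rpl7, was 5.13% to 9.17% of its pair in neutrophils and 0.887% to 1.82% in type 2 dendritic cells. Rpl10l, a germ-line gene, had no UMI, which at 3 counts allows up to 0.0556 to 0.0627 CPM.

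Genes linked to ribosome production were set beside the group. Of 15 translation factors and other TOP mRNAs, 13 were called higher in type 2 dendritic cells (background 22.5%), 12 in type 1 dendritic cells (19.4%) and 10 in T cells (23.4%). All 15 were lower in aerocytes (background 20%) and 12 in neutrophils (30.3%). Among 23 genes of ribosome assembly in the nucleolus, 17 were higher in B cells (background 25.8%) and 20 were lower in neutrophils (30.3%). Npm1, a nucleolar chaperone, was at 1.10 on the log2 scale in T cells and at -2.55 in neutrophils.

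The mitochondrial ribosome did not follow the cytosolic one in every type. In alveolar macrophages 29 of 78 mitochondrial ribosomal protein genes were higher (background 24.7%) and none was lower, where 8 cytosolic genes were lower (background 19.3%) and only Rpl3l was higher. In neutrophils 59 of the 78 were lower (background 30.3%). In aerocytes 10 were higher (background 25.9%) and 7 lower (20%), both under the background, beside the 78 cytosolic genes that were lower.

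Of 14 regulators, Eif4ebp1, a repressor of cap-dependent translation that mTOR inactivates, was lower in T cells (-2.24), NK cells (-2.38) and B cells (-1.51) and higher in neutrophils (2.86). Myc, a transcription factor that drives ribosome production, was higher in adventitial fibroblasts (3.12) and B cells (2.43) and lower in neutrophils (-1.85), and was not called in T cells (-0.36). Larp1, which binds the TOP tract, was lower in neutrophils (-1.46). Across the regulators the calls went both ways, with 2 of 14 higher (background 23.4%) and 3 lower (20.8%) in T cells, and 5 higher (26.1%) and 3 lower (30.3%) in neutrophils.

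Between GAL and WT no ribosomal protein gene was called, by edgeR's quasi-likelihood test at an adjusted p under 0.05, in the whole lung or in any of the 14 types. Over all genes, edgeR called 0% of 16821 in the whole lung (918 at an unadjusted p under 0.05), 0.626% in nonclassical monocytes, 0.0154% in classical monocytes and 0.0101% in general capillary cells, and 0% in the other types. At an unadjusted p under 0.05 the ribosomal protein genes gave 0 of 82 in the whole lung. They gave 1 of 80 in NK cells, 1 of 81 in nonclassical monocytes and 1 of 81 in neutrophils. Over all genes those types gave 149 of 6328, 541 of 5427 and 150 of 5620, in the same order. DESeq2 called 31 genes in the whole lung (0.184%) and none of the group in any comparison.

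In the whole lung the share was 17.8% and 18.9% in GAL and 19.3% and 20.4% in WT. Both GAL libraries lay below both WT libraries, with means of 18.3% ± 0.730 and 19.8% ± 0.791 (SD, n = 2), a difference of -1.49 points. An exact two-sided permutation test gave p = 0.333, the smallest that 2 against 2 allows. With each of the 14 types given equal weight the difference was -0.392 points. That value leaves out all cells outside the 14 types. Cells assigned to no type held 17.0% and 19.3% in GAL and 20.9% and 21.0% in WT. Without mitochondrial and hemoglobin UMIs the whole-lung difference was -1.43 points, and with cells of at most 10% mitochondrial UMIs -1.48 points.

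Gene by gene, 78 of the 82 tested had a negative log2 fold change in the whole lung, with a median of -0.13 against 0.01 over all genes. For 31 of the 82 both GAL libraries lay below both WT libraries, against 18% of all genes. They lay above for none, against 20.1% of all genes. Leaving out GAL replicate 1 brought the median to -0.04, with 20 genes called by edgeR among all genes. Leaving out GAL replicate 2 brought it to -0.27, with 660 genes called. None of those called was a ribosomal protein gene. Mitochondrial ribosomal protein genes had a median of -0.19 and those of ribosome assembly -0.19 in the same comparison.

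Within types the share was lower in both GAL libraries in 4 of the 14, higher in both in 1, and overlapped in 9. The 4 were interstitial macrophages (16.2% and 17.4% against 18.2% and 17.6%), classical monocytes (20.6% and 21.3% against 21.9% and 21.9%), alveolar fibroblasts (12.9% and 12.9% against 13.9% and 13.6%) and adventitial fibroblasts (16.5% and 15.8% against 16.7% and 16.7%). Type 1 dendritic cells went the other way, with 25.9% and 26.4% in GAL and 23.9% and 24.6% in WT, from 52 to 107 cells a library. There both GAL libraries lay above both WT libraries for 38 of 80 genes (background 18.6%), with a median log2 fold change of 0.16, and none was called with all libraries. Mitochondrial ribosomal protein genes had a median of -0.27 there, with both GAL libraries below both WT libraries for 28 of 69 (background 19.3%). A negative median of these mitochondrial genes was not particular to type 1 dendritic cells. It was negative in every tested type, such as -0.22 in adventitial fibroblasts and -0.02 in classical monocytes. Of the 4 types with a lower GAL share, both GAL libraries lay below for 26 of 80 genes in alveolar fibroblasts (background 17%), 13 in interstitial macrophages (14.1%), 11 in adventitial fibroblasts (17.1%) and 8 in classical monocytes (18.1%). The last 3 counts are near or under the background. For the share of a type, labels given at random separate 2 against 2 libraries, in either direction, with probability 0.333 (exact two-sided permutation test). The types also share the same 4 libraries.

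Leaving out WT replicate 1 made 2 calls in type 1 dendritic cells, Rps29 and Rps28, and leaving out WT replicate 2 made 1, Rps4x, each higher in GAL. Such a fit has a single WT library, which is assumed to vary as the GAL pair does. In T cells the median of the group was -0.09, and it was -0.33 without WT replicate 1 and 0.16 without WT replicate 2.

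Single genes stood at the ends of many of these comparisons. Rps27l was among the lowest 3 in 9 of the 15. In neutrophils its normalised level was 97.2 and 86.6 CPM in GAL and 198 and 117 CPM in WT, a log2 fold change of -0.79 ± 0.31 (edgeR adjusted p = 1.0). In NK cells it was 203 and 197 against 340 and 258 CPM (-0.56 ± 0.25, edgeR adjusted p = 1.0), and in nonclassical monocytes 266 and 287 against 515 and 304 CPM (-0.55 ± 0.25, edgeR adjusted p = 0.494). In type 1 dendritic cells it was 548 and 495 against 810 and 622 CPM (-0.46 ± 0.22, edgeR adjusted p = 0.674). The GAL libraries were the lower ones in each of these 4 types, WT replicate 1 was the highest library in each, and no value passed the adjusted threshold. Over the 14 types its log2 fold change ranged from -0.79 to -0.08, and the 4 types given here had its lowest values. Both GAL libraries lay below both WT libraries in 7 of the 14 types, against 11.3% to 20.4% of all genes in a type. In the whole lung the libraries overlapped. These values share the same 4 libraries.

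Rps6, the small-subunit protein phosphorylated downstream of mTOR, was at 1204 and 1300 CPM in GAL and 1517 and 1570 CPM in WT in the whole lung (-0.30 ± 0.17, edgeR adjusted p = 0.768). In alveolar fibroblasts its log2 fold change was -0.25 ± 0.17 (edgeR adjusted p = 0.981). Rpl29, a large-subunit protein, was among the highest 3 in 12 of the 15 comparisons, with 0.31 ± 0.20 in type 1 dendritic cells (edgeR adjusted p = 0.783) and 0.10 ± 0.33 in T cells (edgeR adjusted p = 1.0). Its log2 fold change was positive in all 14 types, but both GAL libraries lay above both WT libraries in only 2 of them. Over all genes both lay above for 11.2% to 19.3% in a type. None of these differences passed the adjusted threshold. For Rps6 both GAL libraries lay below both WT libraries in the whole lung and in 8 of the 14 types, among them alveolar fibroblasts. Its log2 fold change was negative in all 14. Over all genes both GAL libraries lay below for 18% in the whole lung and for 11.3% to 20.4% in a type. The types share the same 4 libraries.

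**Figure D5:**
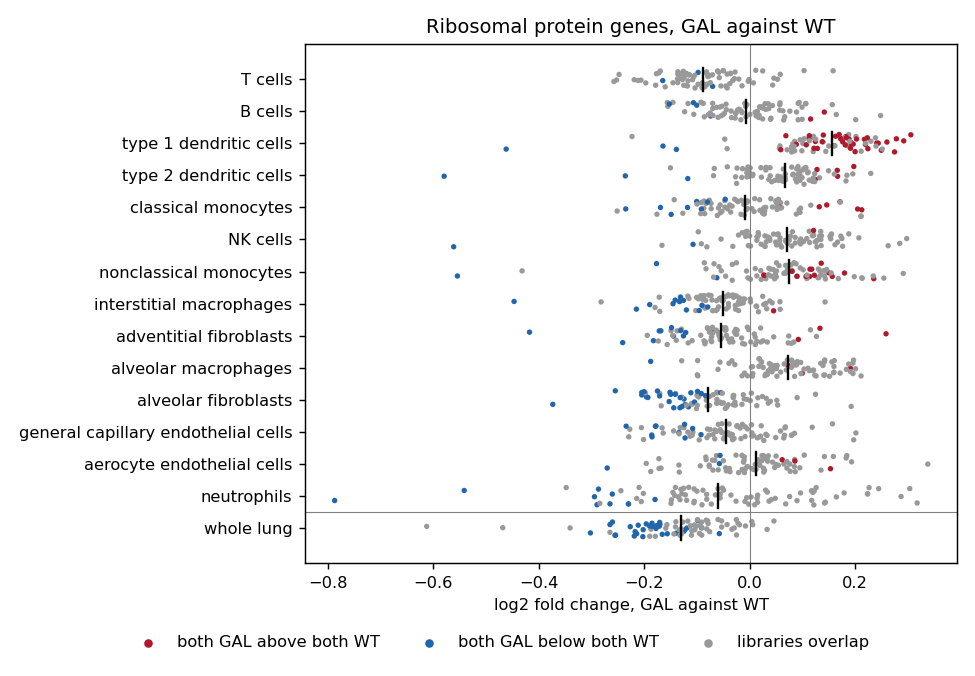
Log2 fold change of GAL against WT (x axis) of each tested ribosomal protein gene (points) in the whole lung and 14 cell types (y axis); black bars are medians and colours show genes whose GAL libraries both lie above (red) or below (blue) both WT libraries. Medians lie within 0.16 of 0, and no gene was called.

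For paralogue use, 2 libraries a group allow no exact p below 0.333. The Rps27l share of its pair was lower in both GAL libraries in 6 of the 14 types, among them type 2 dendritic cells (20.2% and 20.7% against 24.3% and 24.2%), and overlapped in 8. For Rpl22l1 the libraries overlapped in 12 types and GAL was above in 2. Rpl36al was lower in both GAL libraries in 5 types and overlapped in 9, and Rpl7l1 was lower in 7, above in 1 and overlapped in 6. Rpl3l was lower in 3 and overlapped in 11, and Rpl39l was lower in 1 and overlapped in 13. Labels given at random separate the groups in a type, in either direction, with probability 0.333, and the types share the same 4 libraries. Rpl7l1 also rested on few UMIs, with 12 to 36 a library in neutrophils.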

How the data were processed

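UMI count matrices, deposited by the authors for 4 mouse lung libraries made on the SeekOne platform (per the labels' protocols), were used as raw counts. Tools named by the submitters' processing notes are STAR, fastp and Seurat, on GRCm38 or mm10; versions, annotation, strand and multi-mapped reads are not given in the sources used here. Barcodes needed 500 or more UMIs, 300 or more genes and a mitochondrial share of no more than 20% (scanpy 1.11.5), and the highest Scrublet scores were removed at 0.8% per 1000 cells. Counts were summed per library and gated type and tested with edgeR 4.0.16 (filterByExpr, TMM, quasi-likelihood), with DESeq2 1.42.0 as an alternative. The members, lists and tests were chosen with earlier results of these data known. Named genes were all paralogue pairs, the 5 with most UMIs, the 3 highest and lowest per comparison, the 10 with the widest range of pool percentage, listed regulators and markers; others named were chosen after their values were seen. On simulated counts, 16 of 100 2-fold and 96 of 100 4-fold changes were recovered in the whole lung with 22 false calls, 20 and 99 of 100 in T cells with 16 false calls, and 40 and 85 of 100 in nonclassical monocytes with 6. The false calls of the first 2 fits exceed what the adjusted threshold allows. Intervals and floors cover counting error only. Rows of processed copies of the genes held 0.414 UMIs per 1000 of the group. The pair of Rps4x was not analysed here. A further division of the T cells is not reported here.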

Additional observations from a re-analysis of the deposited data

Results flagged for a closer look

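The order of GAL and WT libraries in the ribosomal protein share was opposite in different cell types. In type 1 dendritic cells both GAL libraries lay above both WT libraries, by 1.89 percentage points. Both lay below in interstitial macrophages (-1.08 points), classical monocytes (-0.987), alveolar fibroblasts (-0.846) and adventitial fibroblasts (-0.530). The difference between these cell types was not tested. How many types separated changed with the processing, as given below. With 2 libraries a group, labels given at random separate the shares of a type, in either direction, with probability 0.333 (exact two-sided permutation test). The types also share the same 4 libraries.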

How the results depend on the processing

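The GAL minus WT difference in the whole-lung share was -0.392 points with equal weight for each tested cell type, which leaves out all other cells. The difference ranged from -2.05 to -0.934 when 1 library was left out and kept its sign under the other alternatives. Within types the share lay below in both GAL libraries in 4 of the 14 and above in 1. These counts held without mitochondrial and hemoglobin UMIs, with the gate of 4 markers and with at most 10% mitochondrial UMIs. They were 5 and 1 with the mean of the share per cell and 6 and 1 with doublets kept. Among the 11 types with enough cells of 1000 to 4000 UMIs they were 4 and 0. The GAL mean was lower in 8 to 11 of the 14 types when 1 library was left out. Members called between GAL and WT numbered 0 under each alternative with all libraries, and 0 to 2 with 1 left out. Calls between types were 316 higher and 262 lower, also with no replicate block (316 and 262), and 302 to 328 and 254 to 279 under the rest. No paired analysis of GAL with WT was possible because the labels carry no replicate numbers or pairs: the numbers used here only name the libraries in order. The Rpl3l share in neutrophils was 10.7% with doublets kept. Values near 0 changed sign: Rpl36a in classical monocytes was 0.00562 with TMM without the group, 0.0127 with no filter and 0.0365 with the gate of 4 markers, and -0.0139 to 0.0715 with 1 library left out; Rps27 in neutrophils was -0.0607 with no filter and -0.0790 to 0.213 with 1 left out, negative without either WT replicate. Rpl29 in T cells, GAL against WT, ranged from -0.27 to 0.61, and was -0.12 without GAL replicate 1 and -0.27 without WT replicate 1. The causes were not tested. Rpl22l1 in alveolar fibroblasts reached 1.5-fold with RLE factors and with DESeq2 (0.65 each), and Rps27l in T cells fell short of it as given above. Single genes were followed under the alternatives only for chosen pairs of a ribosomal protein gene and a type, and no other pair followed changed its call or direction. The gene lists, Fau, Npm1 and the regulators were not followed. Neither were Rpl22 in fibroblasts nor Rpl3l in nonclassical monocytes and neutrophils. Depth limits Rpl3l, Rpl39l and Rpl7l1 most, and the cells of 1000 to 4000 UMIs were too few in 3 types.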
